A study of Mus musculus with 16 samples.

Results

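The genes described here were Ncl, Npm1, Fbl, Nop56, Nop58, Dkc1, Polr1b, Nop16, Rrs1 and Wdr43, a list of 10 nucleolar genes of ribosome biogenesis that are known as targets of Myc, among the 24982 genes of the count table. They were listed by name, not by a rule on their expression values, but with earlier results of these data known. All 10 were found both in the count table and in that of TPM (transcript abundance scaled to gene length and library total), and each had counts in every tumor, between 309 and 118454, so that none was lost to a filter on low values. RNA-seq had been made from 16 mouse rhabdoid tumors (RT), the cancer that arises when the chromatin remodelling subunit Smarcb1 is lost. Every mouse carried the genotype Smarcb1flox/flox;R26-CreERT2, on a mixed background, in which tamoxifen given to the pregnant mother starts a Cre recombinase in unrestricted cell types and deletes Smarcb1 there, so that no group lacked the deletion. Each tumor came from its own mouse and was dissected by hand from frozen tissue, which keeps the host cells lying within it. By site, 5 tumors were intra-CNS, within the brain parenchyma, and were all induced at E6, at ages of 30 to 180 days. The other 11 were extra-CNS. Of these, 6 were intracranial extra-CNS, at 52 to 170 days, with tamoxifen at E8 in 4, at E6 in 1 and at E7 in 1, and 5 were extracranial, at 80 to 210 days, with tamoxifen at E8 in 4 and at E6 in 1. The intra-CNS tumors are those the study calls Shh, and the extra-CNS tumors those it calls Myc. Subgroup and site therefore coincide and cannot be told apart. The day of tamoxifen moves with them in all but 2 extra-CNS tumors, those of 43825B and R26P170, which were induced at E6 like the intra-CNS tumors.

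The nucleolus is where RNA polymerase I transcribes ribosomal DNA and where the precursor RNA is modified, cut and packed with ribosomal proteins into both ribosomal subunits. Myc, a basic helix-loop-helix factor, binds E-box sequences with its partner Max and is well known for raising the transcription of genes of this pathway, and its paralogs Mycn and Mycl bind the same sequences. The genes listed cover successive steps of the pathway. Polr1b is the second largest subunit of RNA polymerase I. Fbl, Nop56 and Nop58 belong to the protein core of the box C/D small nucleolar ribonucleoproteins (snoRNPs) that guide methylation of ribosomal RNA. Dkc1 is the pseudouridine synthase of the box H/ACA snoRNPs. Wdr43 belongs to the small subunit processome, Nop16 and Rrs1 serve assembly of the large subunit, and Ncl and Npm1 are the abundant nucleolar proteins nucleolin and nucleophosmin.

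Depth was between 17889968 and 110177889 counts per tumor. Smarcb1 itself, counted over the whole gene so that the deleted part was not read apart, was at 8.63 to 26.1 TPM in extracranial tumors, which does not check the deletion. It was at 58.1 TPM in the intra-CNS tumor of 29048 against 3.99 to 9.91 TPM in the other 4, and at 43.7 TPM in the intracranial extra-CNS tumor of R26P115 against 6.48 to 16.7 TPM in the other 5. These 2 tumors also stood apart in genes of other cell types. In the intracranial extra-CNS tumor of mouse R26P115, Ttr, the transthyretin that choroid plexus makes in quantity, took 10.1% of all counts (199520 TPM), and the 15 genes of proliferation summed to 212 TPM, against 798 to 1656 TPM in the extracranial tumors. In the intra-CNS tumor of mouse 29048, the 6 oligodendrocyte markers summed to 6295 TPM, with none of them at 0, against at most 135.7 TPM in any extra-CNS tumor, the 9 neuronal markers summed to 4428 TPM, proliferation genes to 434 TPM, and Ttr was at 4535 TPM, against at most 3.36 TPM in the other 14 tumors. In all 16 tumors, fewer cells of a type and less RNA per cell cannot be told apart. Macrophage and microglia markers summed to 703 to 1138 TPM in intra-CNS tumors and to 758 to 8601 TPM in extra-CNS tumors, and fibroblast markers to 105 to 526 TPM and to 545 to 7795 TPM, and the part of these cells in the results was not tested.

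Myc was lower and its paralogs were higher in the intra-CNS tumors. Values are given in the order 29048, 38594A, 29050A, R26P98 and R26P87 for the intra-CNS tumors and 43825B, 43987A, 43990A, 43998A and R26P123 for the extracranial tumors. Myc was at 13.8, 28.4, 9.32, 12.4 and 28.8 TPM in the 5 intra-CNS tumors and at 87.0, 130.5, 202.9, 94.2 and 193.0 TPM in the 5 extracranial tumors. In the 6 intracranial extra-CNS tumors it ran from 8.73 through a median of 118.1 to 225.3 TPM. The groups overlapped through 1 tumor, that of R26P115, whose Myc level lay below every intra-CNS tumor, while the other 10 extra-CNS tumors were all at or above 87.0 TPM. The difference of intra-CNS less extra-CNS was -3.32 on the log2 scale (SE 0.54, edgeR's quasi-likelihood test, adjusted p = 0.00028).

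Mycn, the paralog active in neural progenitors, was at 34.4, 111.9, 326.6, 279.0 and 376.8 TPM in the intra-CNS tumors and between 0 and 2.47 TPM in the 11 extra-CNS tumors. Mycl was at 35.5, 71.0, 72.2, 76.0 and 85.9 TPM in the intra-CNS tumors and between 0.323 and 2.12 TPM in the others. For neither gene did the groups overlap, and the differences were 7.94 (SE 0.81, edgeR adjusted p = 7.7e-06) and 5.32 (SE 0.37, edgeR adjusted p = 3.1e-07) on the log2 scale. Summed over the 3 genes, the level was 83.8 to 491.5 TPM in intra-CNS tumors, with a median of 367.5, and 9.05 to 226.5 TPM in extra-CNS tumors, with a median of 122.7, or 88.9 to 226.5 TPM without R26P115. The mean log2 of this sum was higher by 1.32 in intra-CNS tumors, which did not pass a two-sided exact permutation test over the 4368 splits of 5 against 11 tumors (p = 0.0545). Without R26P115, chosen after the data were seen, the difference was 0.96 and passed (exact permutation p = 0.028 over 3003 splits), and without 29048 it was 1.73 (exact permutation p = 0.0161 over 1365 splits).

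**Figure D1:**
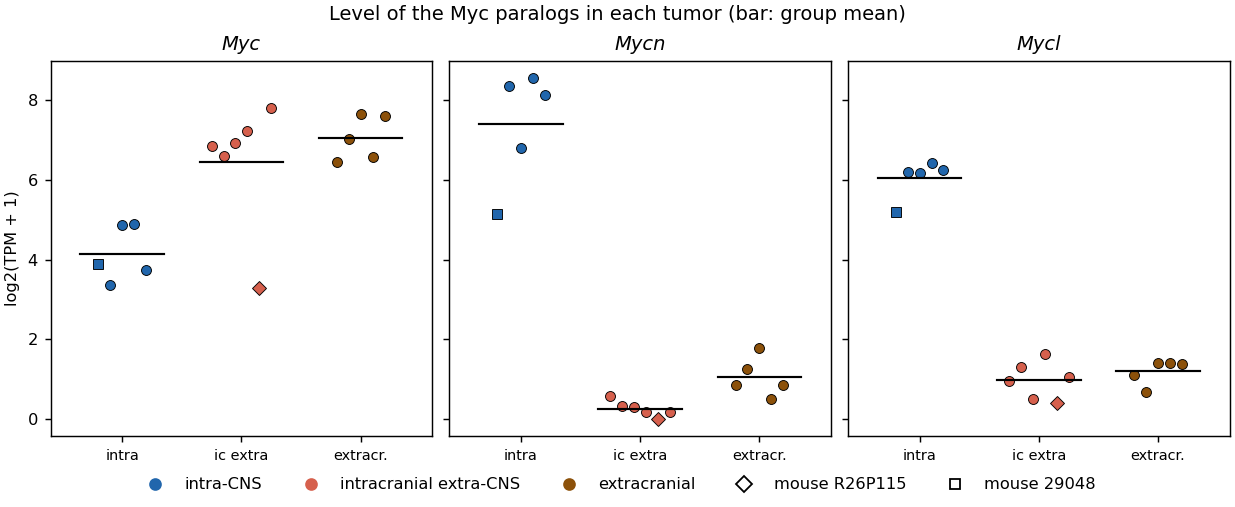
Log2(TPM + 1) of Myc, Mycn and Mycl (vertical axes) in each tumor, by site (intra: intra-CNS, ic extra: intracranial extra-CNS, extracr.: extracranial). Points are tumors and bars are group means; Mycn and Mycl do not overlap between intra-CNS and extra-CNS tumors, and for Myc the tumor of R26P115 lies below all intra-CNS tumors.

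The promoters on hand were read for the E-box. RefSeq promoter windows (GRCm38.p6, 250 bases before to 50 after the annotated start) were matched by symbol for 7 of the 10 genes, namely Ncl, Nop56, Nop58, Dkc1, Polr1b, Nop16 and Wdr43, and not for Npm1, Fbl and Rrs1. The E-box CACGTG, which reads the same on both strands, was present in 1 of the 7 windows and in 7.15% of all 32851 windows. The related CACGCG, searched on both strands as CACGCG or CGCGTG, was present in 1 of the 7 and in 9.27% of all windows, and no site counted under both. The match to CACGTG was in Wdr43, 18 bases after the RefSeq start. The match to the related motif was in Nop16, 29 bases after its RefSeq start. The Wdr43 window, chr17:71615965-71616264, lies within the GENCODE span of the gene, which begins at 71615895, so the annotations differ in the start. The Wdr43 site is shown as 30 bases with the E-box in capitals, and the 250 bases before the start are shown for Nop56 and Nop58, partners whose ratio differed between the groups, and for Dkc1, which stood apart from the rest of the list. Neither motif occurs in those 3 stretches, so they hold no capitals. Their GC content was 65.2% for Nop56, 41.2% for Nop58 and 52.0% for Dkc1, against a median of 52.4% over all windows. That these letters are absent from a window says nothing of binding elsewhere in the gene.
Wdr43, chr17:71616220-71616249, plus strand: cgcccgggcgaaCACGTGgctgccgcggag
Nop56, chr2:130274162-130274411, plus strand: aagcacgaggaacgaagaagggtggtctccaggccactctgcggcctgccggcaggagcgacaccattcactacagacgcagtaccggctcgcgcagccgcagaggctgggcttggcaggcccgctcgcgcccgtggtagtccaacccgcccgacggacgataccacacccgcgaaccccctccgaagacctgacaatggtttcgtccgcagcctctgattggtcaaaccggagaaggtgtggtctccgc
Nop58, chr1:59684756-59685005, plus strand: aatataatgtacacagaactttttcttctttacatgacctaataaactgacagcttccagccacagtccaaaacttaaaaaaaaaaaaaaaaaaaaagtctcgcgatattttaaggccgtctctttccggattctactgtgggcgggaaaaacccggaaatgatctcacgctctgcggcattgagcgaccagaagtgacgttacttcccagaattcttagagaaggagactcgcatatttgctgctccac
Dkc1, chrX:75095604-75095853, plus strand: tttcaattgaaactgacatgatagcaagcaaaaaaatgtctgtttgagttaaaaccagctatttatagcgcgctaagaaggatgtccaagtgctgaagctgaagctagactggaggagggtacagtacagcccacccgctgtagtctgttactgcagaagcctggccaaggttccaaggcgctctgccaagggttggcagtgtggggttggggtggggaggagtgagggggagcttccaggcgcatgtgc

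Among the abundant nucleolar proteins, Npm1 was the most highly expressed of the list. Npm1 (chr11:33152287-33163206, minus strand, GENCODE M21 on GRCm38) was at 517, 834, 1199, 969 and 1080.0 TPM in the intra-CNS tumors and at 841, 918, 1647, 916 and 885 TPM in the extracranial tumors. In the intracranial extra-CNS tumors it ran from 372 through a median of 1301 to 1608 TPM. The levels overlapped, with R26P115 lowest and 29048 next to it, and 43990A highest. Ncl (chr1:86344719-86359400, minus strand) was at 152, 209, 233, 231 and 259.5 TPM in intra-CNS tumors and at 165, 200.5, 226, 207 and 207 TPM in extracranial tumors. In intracranial extra-CNS tumors it ran from 97.1 through 256 to 296 TPM, and here too R26P115 was lowest and 29048 next.

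Of the box C/D core, Fbl, the methyltransferase (chr7:28169710-28179269, plus strand), was at 115, 186, 223, 195 and 244.5 TPM in intra-CNS tumors, at 177, 161, 356, 188 and 152 TPM in extracranial tumors, and ran from 40.8 through 208 to 344 TPM in intracranial extra-CNS tumors. Its paralog Fbll1, whose reads could be shared with it, was at 0.957 to 35.6 TPM in intra-CNS tumors and at most 0.316 TPM in extra-CNS tumors. Nop56 (chr2:130274430-130279313, plus strand) was at 154, 221, 242, 229 and 244 TPM in intra-CNS tumors and at 118, 149, 251, 130 and 142 TPM in extracranial tumors, and ran from 49.8 through 161 to 201 TPM in intracranial extra-CNS tumors. Without 29048, the intra-CNS tumors lay above every extra-CNS tumor but 43990A. Nop58 (chr1:59684971-59719044, plus strand), the partner that sits beside Nop56 in the particle, was at 62.1, 113, 149, 161 and 193 TPM in intra-CNS tumors, at 118, 133, 239, 110.1 and 164 TPM in extracranial tumors, and ran from 46.0 through 165 to 210 TPM in intracranial extra-CNS tumors, and the groups overlapped over most of their range.

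Dkc1 (chrX:75095854-75109777, plus strand), the box H/ACA enzyme, was at 43.2, 67.3, 92.7, 79.5 and 119 TPM in intra-CNS tumors and at 35.4, 34.6, 81.6, 46.8 and 43.6 TPM in extracranial tumors. In intracranial extra-CNS tumors it ran from 19.2 through 43.1 to 53.3 TPM. All intra-CNS tumors but 29048 were above all extra-CNS tumors but 43990A. Among extra-CNS tumors with the sex of the mouse given, Dkc1, which is X-linked, was at 52.5 to 81.6 TPM in 3 males and at 19.2 to 50.05 TPM in 7 females, or from 34.6 TPM without R26P115. The same 3 male tumors were also the highest of the extra-CNS tumors in Wdr43, which is on chromosome 17. Polr1b (chr2:129100995-129126594, plus strand) was the least expressed, at 18.4, 23.0, 29.9, 26.8 and 39.7 TPM in intra-CNS tumors, at 19.8, 18.2, 36.9, 23.9 and 20.7 TPM in extracranial tumors and from 7.04 through 25.5 to 30.1 TPM in intracranial extra-CNS tumors. Its highest levels in both groups, in R26P87 and 43990A, were close to each other.

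Wdr43 (chr17:71615895-71659031, plus strand) was at 38.3, 61.0, 76.2, 79.4 and 89.4 TPM in intra-CNS tumors, at 57.3, 63.7, 108.3, 66.4 and 77.8 TPM in extracranial tumors, and ran from 25.9 through 70.2 to 86.9 TPM in intracranial extra-CNS tumors. Rrs1 (chr1:9545408-9547455, plus strand) was at 33.6, 34.8, 55.9, 50.9 and 61.0 TPM in intra-CNS tumors and from 16.2 through 68.1 to 95.6 TPM in intracranial extra-CNS tumors, and kept to 43.8 to 54.4 TPM in the extracranial tumors. Nop16 (chr13:54584185-54590090, minus strand) was at 49.1, 71.5, 73.2, 74.5 and 75.7 TPM in intra-CNS tumors and ran from 21.6 through 76.1 to 87.5 TPM in intracranial extra-CNS tumors. In the extracranial tumors it was at 162 TPM in that of 43825B, its highest value of the series, and at 69.6, 72.7, 62.4 and 62.7 TPM in the others. Wdr43, Rrs1 and Nop16 overlapped between the groups over most of their range. Reads of snoRNA genes that lie within Ncl (3), Nop56 (5), Nop58 (4), Dkc1 (1) and Wdr43 (3) could enter these counts. So could reads of genes on the opposite strand that overlap Nop56 (Idh3b), Dkc1 (Mpp1) and Wdr43 (CT010429.2). Whether the counting used the strand is not given in the sources used here.

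**Figure D2:**
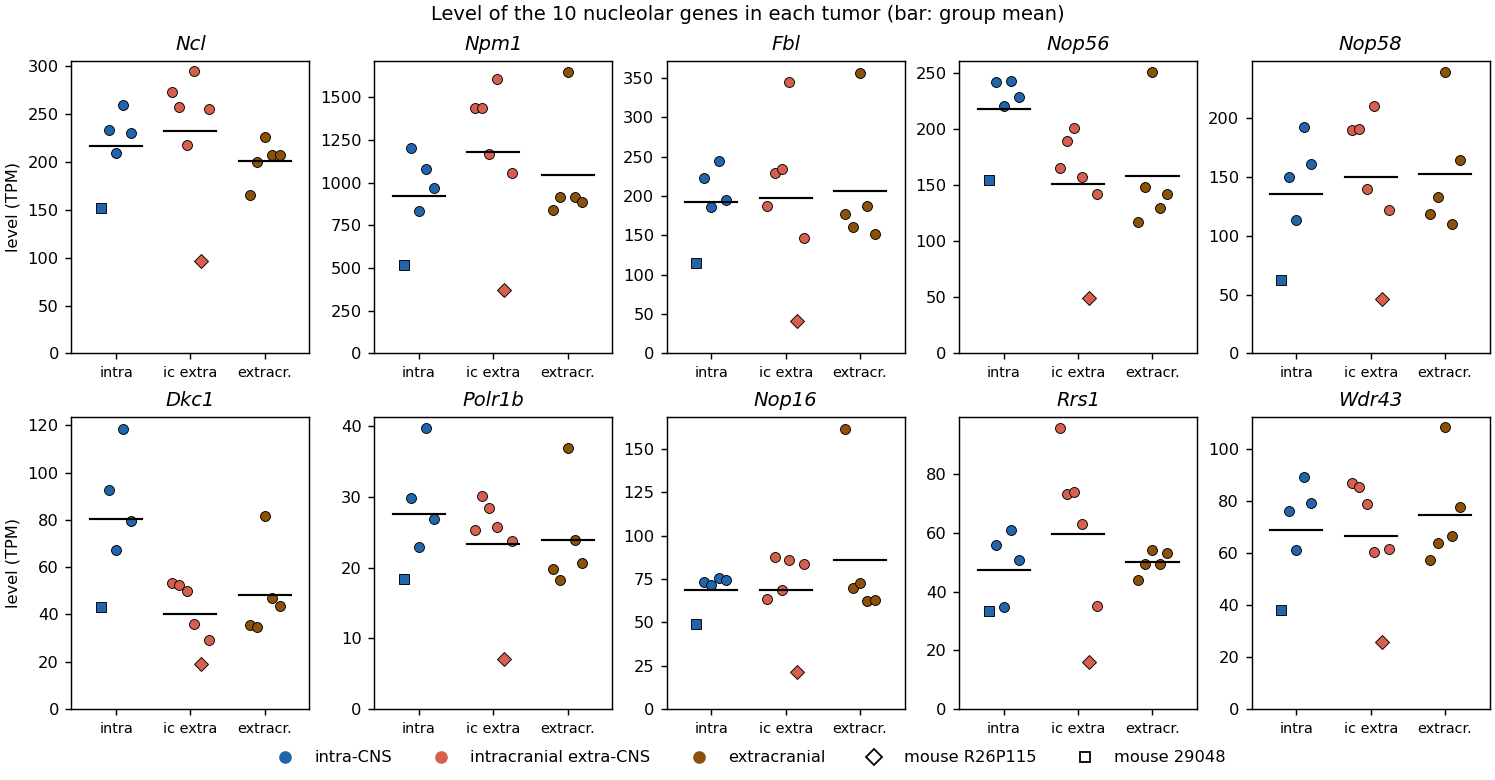
Level in TPM (vertical axes, from 0) of the 10 genes in each tumor, by site (intra: intra-CNS, ic extra: intracranial extra-CNS, extracr.: extracranial). Points are tumors, bars are group means, the diamond is R26P115 and the square 29048; these 2 are the lowest of their groups in every panel, and Nop16 stands out at 162 TPM in 1 extracranial tumor.

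Intra-CNS tumors were compared with extra-CNS tumors to see whether nucleolar genes differ between a group with low Myc and one with high Myc. On counts scaled by TMM (the trimmed mean of M-values), 9 of the 10 genes had a lower estimate in intra-CNS tumors, and 1 of them, Npm1, fell by 0.79 on the log2 scale (SE 0.29, 1.73-fold lower, edgeR adjusted p = 0.042). Over all 21854 genes tested, 17.0% were called lower and 16.1% higher in intra-CNS tumors, so that 1 called of 10 was not above the background. The estimates were -0.53 for Ncl, -0.58 for Fbl, -0.67 for Nop58, -0.67 for Nop16, -0.74 for Rrs1, -0.54 for Wdr43 and -0.29 for Polr1b. Nop56 was at -0.01, with a 95% interval of -0.48 to 0.45, and Dkc1 at 0.36, with an interval of -0.15 to 0.87. Ncl and Rrs1 came nearest to the threshold after Npm1, with edgeR adjusted p of 0.063 and 0.061. The median over the 10 genes was -0.56, beside -0.15 over all genes tested.

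The scaling moved these values together. The median over all genes was -0.15 with TMM, -0.12 with DESeq2's size factors, 0.15 with total counts and 0.20 with limma on log2(TPM + 1). With total counts 12.0% of all genes were called lower in intra-CNS tumors and 22.9% higher, and with limma on TPM 7.7% lower and 32.1% higher. Taken relative to that median, 8 of the 10 genes were below it under each of the 3 count scalings and 7 under TPM. Dkc1 and Nop56 were above it under all 4, by 0.51 and 0.14 with TMM and by 0.67 and 0.37 with TPM, and Polr1b passed from 0.15 below with TMM to 0.06 above with TPM. Npm1 was 0.65 below with TMM and 0.43 below with TPM. Dkc1 was the 1 gene of the 10 called by limma on TPM, where it was higher by 0.87 in intra-CNS tumors (limma adjusted p = 0.021), and its two-sided exact permutation test gave p = 0.00984. For Npm1 the same exact test gave p = 0.471, and for the other 8 genes it gave between 0.0501 (Nop56) and 0.972 (Wdr43). Without R26P115 the exact permutation p was 0.0107 for Dkc1, 0.111 for Npm1, 0.031 for Nop56, whose difference was 0.42, and 0.192 (Rrs1) to 0.583 (Polr1b) for the other 7. Without 29048 it was 0.00293 for Dkc1, 0.0366 for Nop56, whose difference was 0.69, and 0.251 (Polr1b) to 0.925 (Rrs1) for the other 8.

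Npm1 was no longer called when any 1 of 9 tumors (29048, 38594A, R26P98, R26P87, 43990A, 43992A, 29941C, 29225D or R26P170) was left out, with edgeR adjusted p up to 0.109, without 29048. Its estimate in these 9 fits stayed between -0.64 and -0.85. The tumor of R26P115, the lowest of all in each of the 10 genes, moved the number of calls most. Without it, 7 of the 10 (Ncl, Npm1, Fbl, Nop58, Nop16, Rrs1 and Wdr43) were lower in intra-CNS tumors by edgeR at an adjusted p under 0.05, where 19.1% of all genes tested were called lower. Npm1 was then at -0.88 and Rrs1 at -0.83. Without both R26P115 and 29048, which was chosen after the data were seen, 5 were called lower, namely Ncl, Npm1, Nop16, Rrs1 and Wdr43, where 17.1% of all genes were. Among tumors induced at E6 alone, 5 against 43825B and R26P170, edgeR called Nop16 lower (-1.42, adjusted p = 0.022) and none of the other 9, where 11.3% of all genes were called lower, and 43825B is the tumor with the highest Nop16. Myc was at 87.0 and 225.3 TPM in that pair of extra-CNS tumors and Mycn at 0.808 and 0.122 TPM, so both genes kept the groups apart at the same day of tamoxifen. The mice fall into 2 schemes of names, numbers and R26P, whose meaning the labels do not give. Among numbered mice alone (3 against 8), 8 of the 10 were called lower, with a median of -0.98, where 14.2% of all genes were called lower, and among R26P mice alone (2 against 3, of which 1 is R26P115) the median was 0.14 and edgeR called 0 of the 10, 1 of them at an unadjusted p under 0.05, and 0 of all 20347 genes, with 3514 at an unadjusted p under 0.05. The test of the difference between the schemes gave estimates of 0.60 to 1.39 and called none of the 10 (edgeR adjusted p of 0.43 or more), with 6 at an unadjusted p under 0.05, where it called 0 of all 21854 genes, with 2293 at an unadjusted p under 0.05.

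**Figure D3:**
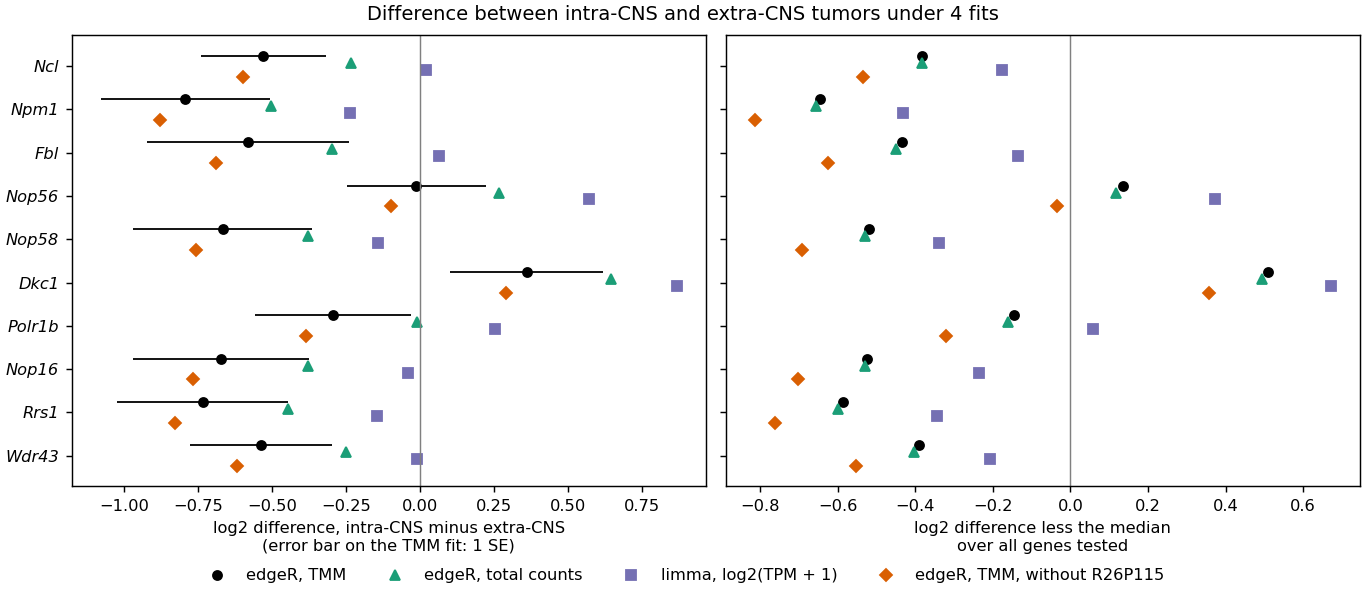
Log2 difference of intra-CNS less extra-CNS tumors for each gene (horizontal axes) under 4 fits, as estimated (left, with 1 SE on the TMM fit) and less the median over all genes tested in that fit (right). Points to the left of 0 are lower in intra-CNS tumors; Dkc1 and Nop56 lie to the right of the other genes in every fit, and the values of limma on TPM lie to the right of the counts.

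Measured within each tumor, where scaling between tumors plays no part, Nop56 and Dkc1 took a larger place among the 10 genes in the intra-CNS tumors. Relative to the mean log2(TPM + 1) of the 10, Nop56 stood at 0.89 ± 0.16 (SD, n = 5) in intra-CNS tumors and at 0.44 ± 0.15 (SD, n = 11) in extra-CNS tumors, and Dkc1 at -0.59 ± 0.16 and -1.34 ± 0.29. For these 2 every intra-CNS tumor, 29048 included, was above every extra-CNS tumor, R26P115 included. Of all 21841 genes tested and held in both tables, 3.31% had this pattern relative to the same mean. Npm1 stood at 2.93 ± 0.14 (SD, n = 5) and 3.28 ± 0.16 (SD, n = 11), and the groups overlapped for it and the other 7 genes.

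Fbl, Nop56 and Nop58 are core proteins of the same box C/D particle, and their ratios were compared, a step chosen after the values were seen. The TPM ratio of Nop56 to Nop58 was 2.49, 1.95, 1.62, 1.43 and 1.27 in the intra-CNS tumors. It ran from 0.749 to 1.44 in the 11 extra-CNS tumors, and 3 of the 5 intra-CNS tumors lay above all of these. The mean log2 ratio was 0.77 ± 0.38 (SD, n = 5) against 0.05 ± 0.26 (SD, n = 11), a difference of 0.72 (two-sided exact permutation p = 0.000687, 0.00206 adjusted over the 3 ratios). It was 0.59 without 29048 and R26P115 (exact permutation p = 0.003, 0.009 adjusted). The adjustment covers these 3 ratios and not the other pairs among the 45, so the p-values describe a contrast picked from the same data. The share of all genes whose ratio to Nop58 differed as much was not computed. Nop56 to Fbl differed by 0.51 (exact permutation p = 0.011, 0.0165 adjusted), with 1 intra-CNS tumor above all extra-CNS tumors, by 0.71 among numbered mice (exact permutation p = 0.00606) and by 0.06 among R26P mice (exact permutation p = 0.7). Fbl to Nop58 differed by 0.21, which did not pass (exact permutation p = 0.247). Among numbered mice the difference for Nop56 to Nop58 was 0.95 (exact permutation p = 0.00606) and among R26P mice it was 0.38 (exact permutation p = 0.2, where the 10 splits allow no less than 0.1). The ratio was highest in 29048, whose oligodendrocyte, neuronal and astrocyte markers were the highest of the series, and the part of those cells was not tested.

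**Figure D4:**
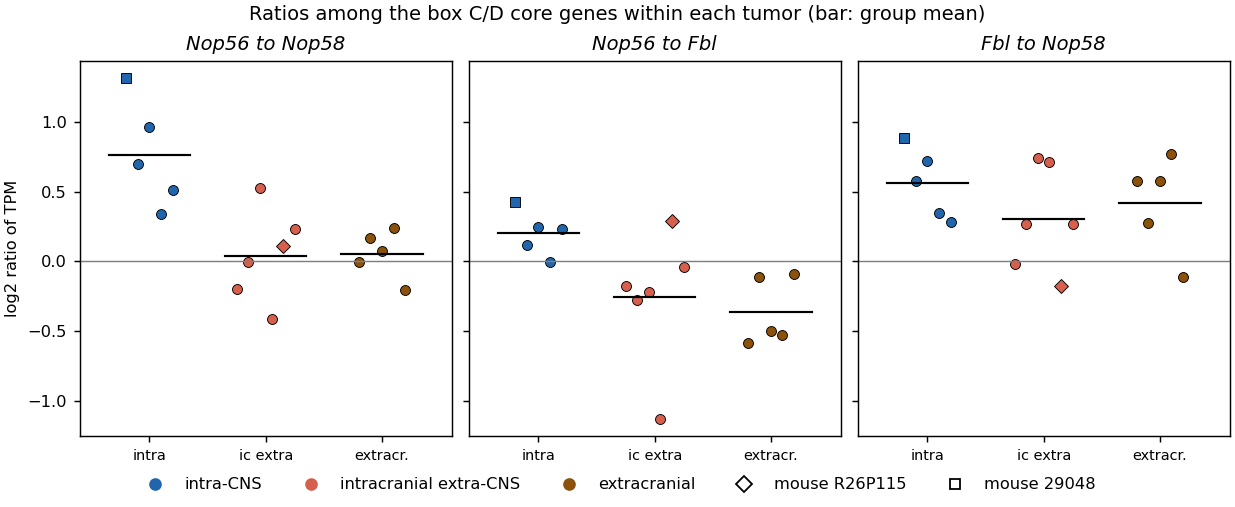
Log2 ratio of TPM (vertical axis) between pairs of the box C/D core genes within each tumor, by site (intra: intra-CNS, ic extra: intracranial extra-CNS, extracr.: extracranial). Points are tumors, bars are group means and the grey line is a ratio of 1; Nop56 to Nop58 is higher in the intra-CNS tumors, where it runs from 1.27 to 2.49, than in most extra-CNS tumors.

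Among the 11 extra-CNS tumors, each gene was set against Myc in the same tumor, to ask whether tumors with more Myc hold more of its nucleolar targets. All 10 estimates were positive, between 0.25 and 0.52 on the log2 scale per unit of log2(TPM + 1) of Myc, and 3 passed, namely Nop56 (0.37, SE 0.10), Nop58 (0.40, SE 0.11) and Polr1b (0.38, SE 0.11), with edgeR adjusted p of 0.044, 0.047 and 0.048. A positive slope was called for 2.19% of the 21261 genes tested. Fbl had the steepest estimate at 0.52 (SE 0.16, edgeR adjusted p = 0.064), and Ncl, Npm1, Dkc1, Nop16, Rrs1 and Wdr43 had 0.25, 0.35, 0.25, 0.31, 0.33 and 0.31. The median over the 10 was 0.34, beside 0.07 over all genes.

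The relation rested on R26P115, which had the lowest Myc (8.73 TPM) and the lowest level of each of the 10 genes. Its Smarcb1, at 43.7 TPM, was the highest of the extra-CNS tumors, and Smarcb1 had a called negative slope on Myc (-0.50, SE 0.14, edgeR adjusted p = 0.047), whose part was not tested. This slope too was not called without R26P115, where edgeR called no negative slope of any gene. No slope of the 10 was called when 43825B, 43987A, 43989C, 43990A, 43998A or 29225D was left out, but the estimates stayed as large as with all 11 tumors, with medians of 0.33 to 0.35 and 7 or 8 genes at an unadjusted p under 0.05. Without 43992A Wdr43 alone was called, without R26P123 Fbl was called in place of Nop58, and without R26P170 Fbl and Wdr43 were called as well. Without R26P115, edgeR called 0 of the 10 and 1 gene in all, 0 of the 10 had an unadjusted p under 0.05, and the estimates ran from -0.41 to 0.21 with a median of 0.09. Of the 10 correlations computed, Pearson's r of log2(TPM + 1) with Myc ran from 0.62 (Dkc1) to 0.85 (Nop56) over the 11 tumors, with permutation p of 0.0167 to 0.0857, of which 7 were under 0.05. Spearman's rho, which takes ranks, ran from 0.14 (Dkc1) to 0.55 (Nop58), with permutation p of 0.0811 to 0.695. Without the 2 tumors farthest from the median of Myc, R26P115 and R26P170, r ran from -0.44 (Nop16) to 0.61 (Nop58) with a median of 0.33 and 8 of the 10 above 0, and over these 9 tumors edgeR called a slope for 0 of the 10, with 0 at an unadjusted p under 0.05 and a median of 0.24, and for 0 genes in all, with 1713 at an unadjusted p under 0.05. Without R26P115 alone, the median r was 0.19, beside 0.04 over all genes. That tumor was also the highest of the series in Ttr and the lowest in proliferation genes, and the part of either was not tested.

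The summed level of the 10 genes, to which Npm1 adds the most, overlapped between intra-CNS and extra-CNS tumors while Myc was low in the former. At 9.32 to 28.8 TPM of Myc, the intra-CNS tumors were at 1183 (29048) to 2404 TPM, with a median of 2095. The 10 extra-CNS tumors other than R26P115 were at 1737 to 3072 TPM, with a median of 2107, all above 29048, and against the same 10 tumors edgeR on counts called 7 of the genes lower, with a median of -0.65, as given above. R26P115, with a like level of Myc, was at 696 TPM. It had 0 counts of Mycn, but Mycn was also low in the other 10 extra-CNS tumors, at 0.122 to 2.47 TPM. In R26P115, Ttr was at 199520 TPM and proliferation genes summed to 212 TPM, the lowest of the series. The part of Mycn, Ttr or proliferation in its low sum was not tested. The test of a difference in slope between the groups called none of the 10, with estimates of -0.45 to -0.11 and 0 of them at an unadjusted p under 0.05 (edgeR adjusted p of 1.0 for each). The same test called 0 of all 21854 genes, with 804 at an unadjusted p under 0.05.

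**Figure D5:**
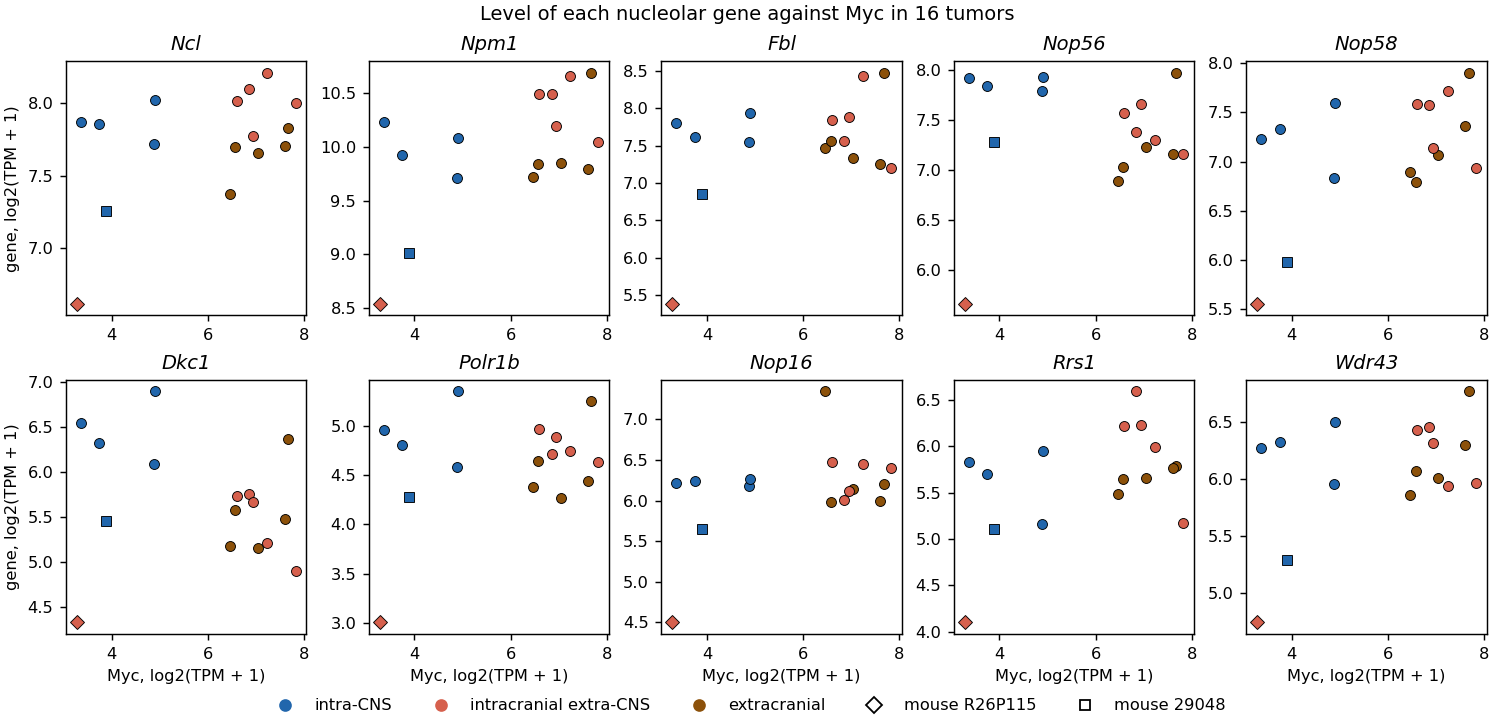
Log2(TPM + 1) of each gene (vertical axes) against log2(TPM + 1) of Myc (horizontal axes) in 16 tumors, with colors for the site. Points are tumors; the diamond at the lower left of every panel is R26P115, and the intra-CNS tumors lie at low Myc with levels of each gene within or near the range of the extra-CNS tumors.

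Between sites within the extra-CNS tumors none of the 10 genes was called. Mean levels in the 6 intracranial and the 5 extracranial tumors were 1179 and 1041 TPM for Npm1, 233 and 201 TPM for Ncl, 151 and 158 TPM for Nop56, and 40.02 and 48.4 TPM for Dkc1. The estimates of intracranial less extracranial ran from -0.32 to 0.25 on the log2 scale, and edgeR and DESeq2 each called 0 of the 10, with 0 at an unadjusted p under 0.05. Of all 21261 genes, 0.0047% were called by edgeR, and of 19438 genes 2.6% by DESeq2. Without R26P115 the estimates ran from -0.13 to 0.45, with 8 of the 10 above 0 instead of 3 and a median of 0.18 instead of -0.03, and edgeR called 0 of the 10, with 0 at an unadjusted p under 0.05. The tumor of 43990A, whose label places it in the nose, moved them too, to a median of 0.15 with 7 above 0 without it and of 0.25 with 9 above 0 when it was counted as intracranial extra-CNS, and edgeR called 0 of the 10 in both. Simulation of 6 against 5 tumors, with 200 genes changed, gave back 27% at a log2 difference of 2 and 0% at 1. The absence of calls therefore does not show that levels are alike between the sites.

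The wider pathway was read from 4 lists that hold 114 further genes. Between intra-CNS and extra-CNS tumors, 23 of the 114 were called lower and 4 higher in intra-CNS tumors, with a median of -0.34, beside 17.0% lower, 16.1% higher and a median of -0.15 over all genes tested. The balance turned with the scaling, as it did over all genes. With total counts 6 were lower and 10 higher, with a median of -0.05, where 12.0% of all genes were called lower and 22.9% higher. With limma on log2(TPM + 1) 2 were lower and 22 higher, with a median of 0.23, where 7.7% of all genes were called lower and 32.1% higher. The medians over all genes were 0.15 and 0.20. By list with TMM, 12 of 41 genes of the small subunit processome and 40S assembly were lower and 2 higher, 9 of 50 of large subunit assembly were lower and 2 higher, 1 of 10 snoRNP proteins was lower (Nhp2, of the box H/ACA core, at -0.77) and 1 of 13 genes of RNA polymerase I and its factors was lower (Polr1d, a subunit, at -0.84). Pno1, a 40S assembly factor, had the lowest estimate of the small subunit list at -1.46 (SE 0.33, edgeR adjusted p = 0.003), with 49.9 ± 6.29 TPM (SD, n = 5) against 95.5 ± 54.3 TPM (SD, n = 11). Nol6 was the highest of that list at 0.48 (SE 0.17, edgeR adjusted p = 0.036), with 78.3 ± 8.77 TPM (SD, n = 5) against 39.3 ± 10.8 TPM (SD, n = 11).

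In the large subunit list, Rrp8 was the lowest at -1.04 (SE 0.22, edgeR adjusted p = 0.0018), with 25.5 ± 3.04 TPM (SD, n = 5) against 36.8 ± 11.3 TPM (SD, n = 11). Gnl3l, a nucleolar GTP-binding protein, was the highest at 1.15 (SE 0.25, edgeR adjusted p = 0.0022), with 102.4 ± 41.3 TPM (SD, n = 5) against 31.6 ± 9.63 TPM (SD, n = 11). The highest estimates of the other lists were those of Taf1a, of the polymerase I selectivity factor, at 0.45 and Znhit3, of snoRNP assembly, at 0.43, and neither passed. Without R26P115, 40 of the 114 were called lower and 5 higher, where 19.1% of all genes were called lower and 20.5% higher. Without 29048, 13 were lower and 3 higher, with a median of -0.23, where 14.6% of all genes were called lower and 13.9% higher, and without 38594A 15 were lower, where 13.0% of all genes were. Among numbered mice alone 50 were lower and 1 higher, with a median of -0.67, where 3065 of all 21509 genes were lower and 3368 higher. Among R26P mice alone the median was 0.18, and edgeR called 0 of the 114 and 0 of all 20347 genes. On Myc among extra-CNS tumors, 13 of the 114 had a called positive slope and 0 a negative one, 10 of them in large subunit assembly, and the median was 0.22, beside 2.19% with a called positive slope and a median of 0.07 over all genes. DESeq2 called 37 of the 114 positive and 2 negative, where it called 1416 of all 21261 genes positive and 1433 negative. The steepest by list were Rrp15 at 0.50 (edgeR adjusted p = 0.039), Rcl1 at 0.60, Gar1 at 0.56 and Tcof1 at 0.43, of which Rrp15 passed. Without R26P115, edgeR called 0 of the 114, and 0 had an unadjusted p under 0.05. It called 26 without R26P170, 4 without 43989C, 5 without 43825B, 43987A or 29225D and 7 without 43998A. Over all genes, a positive slope was called for 762 of 21201 without R26P170, and for 147 to 226 genes in the other fits named. By site, edgeR and DESeq2 called 0 of the 114, with 1 and 5 at an unadjusted p under 0.05.

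The levels of the 10 genes were compared from tumor to tumor. Over the 11 extra-CNS tumors, Pearson's r of log2(TPM + 1) between pairs of the 45 had a median of 0.85 and ran from 0.39 (Dkc1 with Nop16) to 0.97 (Nop56 with Polr1b). Without R26P115 the median was 0.56 and the lowest was -0.46 (Nop16 with Wdr43), and Dkc1 with Wdr43 was highest at 0.93. Levels of 1 tumor share a library and a scaling, so these are descriptions. Of 14793 genes whose counts averaged 50 or more, those most like the mean standardized level of the 10 over all 16 tumors were Rrp15 (r = 0.98), Ftsj3 (0.98), Mybbp1a (0.97), Pola2 (0.96) and Wdr3 (0.96). Pola2 is a subunit of the DNA polymerase alpha primase complex, and the other 4 are in the wider lists. Without R26P115 their r with the same mean ran from 0.88 (Pola2) to 0.95 (Ftsj3).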

How the data were processed

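RNA-seq had been made from 16 mouse rhabdoid tumors as stranded polyA libraries in paired-end mode. Per the labels' processing notes the tools were Trim Galore, FastQC, STAR 2.5.3a and Picard, with the build mm10; the gene annotation is not given in the sources used here. The authors deposited whole-number counts per gene without normalization, and TPM values made from the same libraries. Counts were tested with edgeR 4.0.16 (TMM, glmQLFit, glmQLFTest) in R 4.3.3, over all genes with a count in any tumor of the comparison, with Benjamini-Hochberg adjustment over all of them and calls at an adjusted p under 0.05 with no fold threshold. SEs were taken as the estimate over the root of the quasi-likelihood F, and 95% intervals from them. TPM entered as log2(TPM + 1) in limma 3.58.1, exact permutation tests and correlations (100000 permutations), with scipy 1.17.1, numpy 2.4.6 and pandas 2.3.3 in Python 3.11.15; figures were drawn with matplotlib 3.10.9. Groups follow the site labels, with 5 intra-CNS and 11 extra-CNS tumors. Total counts of 17889968 to 110177889 put counting error well below the spread between tumors; reads carry no molecular identifiers, so counts limit counting error only. Alternatives were DESeq2 1.42.0, DESeq2's size factors, total counts, a filter on low counts, a fold threshold, single tumors left out, subsets by mouse name, day and site, and covariates. In simulated counts of 5 against 11 tumors edgeR recovered 56.5% of genes with a log2 difference of 2 and 2.5% of those with 1, and in the fit on Myc 49.5% with a slope of 1 and 0% with 0.5. Each simulation changed 200 genes, while the fits of the data called 7236 genes between the groups and 1612 on Myc. An adjusted p under the threshold was therefore harder to reach in the simulation, and these shares are not the power of those fits.

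Gene positions come from GENCODE M21 (GRCm38, the same assembly as mm10), and promoter windows from RefSeq. Genes named are the 10 listed, the Myc paralogs, Smarcb1, the highest and lowest estimate of each wider list among genes whose counts averaged 50 or more, the steepest slope on Myc of each, and the 5 genes most like the 10. Ttr, Fbll1 and the neighbours of Nop16 were named after their values were seen. The genes and lists were chosen with earlier results of these data known.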

Additional observations from a re-analysis of the deposited data

Results flagged for a closer look

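Each of the 10 genes and the 3 Myc paralogs was examined in the 3 site groups, 39 groups of 5 or 6 tumors in all, for a tumor whose gap to the nearest other, as a share of the group's range, passed Dixon's 95% value, and 14 groups held one, where chance gives about 1 in 20. Of the 14, 8 were the tumor of R26P115, low among the intracranial extra-CNS tumors. Its log2(TPM + 1) was 6.62 for Ncl, 8.54 for Npm1, 5.67 for Nop56, 5.56 for Nop58, 3.01 for Polr1b, 4.50 for Nop16, 4.75 for Wdr43 and 3.28 for Myc. The tumor of 29048 was low among the intra-CNS tumors in 3, at 7.28 for Nop56, 5.65 for Nop16 and 5.19 for Mycl. The tumor of 43990A was high among the extracranial tumors at 10.7 for Npm1 and 8.48 for Fbl, and that of 43825B at 7.35 for Nop16. The tests of a difference between the naming schemes and of a difference in slope between the groups called 0 of the 10 genes and 0 of all genes, with 2293 and 804 of all genes at an unadjusted p under 0.05.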

How the results depend on the processing

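No paired analysis was possible because every tumor is from its own mouse. Of the 300 values of the 10 genes between intra-CNS and extra-CNS tumors under 30 alternatives, 232 kept their direction and side of the threshold, and of 210 slopes on Myc under 21 alternatives, 153 did; the cause was not tested where they did not. The number of genes called lower in intra-CNS tumors, 1 of the 10, was 3 with DESeq2, 0 with total counts, with a fold threshold, with naming scheme as a covariate, with intracranial tumors alone and with R26P mice alone, 8 with numbered mice alone, 5 without both tumors that stood apart, and 0 to 7 with 1 tumor left out. It was 0 by limma on log2(TPM + 1) and on log2(TPM + 0.1), where 1 (Dkc1) was higher. Calls over all genes, 7236, were 3742 with E6 tumors alone and 0 with R26P mice alone (3514 genes at an unadjusted p under 0.05).

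Nop56, at -0.01, turned to 0.0132 with DESeq2 and with its size factors, 0.27 with total counts, 0.0607 with naming scheme as a covariate, 0.17 with E6 tumors alone, 0.0061 with intracranial tumors alone, 0.0026 without both tumors, and -0.10 to 0.0900 with 1 tumor left out. By limma with the pseudocounts 1 and 0.1, Ncl was 0.0202 and 0.0204, Fbl 0.0623 and 0.0639, Nop56 0.57 and 0.57, and Polr1b 0.25 and 0.27. Dkc1 was -0.11 in numbered mice alone. In R26P mice alone Fbl was 0.43, Nop56 0.54, Nop58 0.14, Polr1b 0.41, Rrs1 0.14 and Wdr43 0.0774.

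The number of called slopes on Myc, 3 of the 10, was 7 with DESeq2, 1 with DESeq2's size factors, with the filter on low counts and with all 16 tumors and group as a term, and 0 with Myc as log2 CPM, with site or naming scheme as a covariate and without both the lowest and the highest tumor in Myc. It was 0 to 5 with 1 tumor left out. Calls over all genes, 1612, were 2849 with DESeq2, 874 with site and 294 with naming scheme as a covariate, 0 without both tumors, and 1 to 2076 with 1 tumor left out. Without both tumors the slope of Nop16 was -0.61 and that of Rrs1 -0.17; with 1 left out they were -0.41 to 0.35 and -0.39 to 0.41. Between sites, the 1 gene called was 505 with DESeq2 and 0 to 3 with 1 tumor left out. Depth limits none of the 10 genes, the lowest count being 309.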

Other observations

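The high level of Nop16 in the extracranial tumor of 43825B was set beside its neighbours on chromosome 13, named after their values were seen. Nop16 was at 161.7 TPM there against 62.4 to 72.7 TPM in the other 4 extracranial tumors. Of the genes within 50000 bases, Higd2a was at 384.5 TPM against 121.6 to 160.8 TPM, and Cltb, a clathrin light chain, at 293.1 TPM against 42.2 to 137.6 TPM. Faf2 was at 76.4 TPM against 48.9 to 66.7 TPM, while Simc1 was at 9.10 TPM against 6.19 to 12.6 TPM, Arl10 at 18.6 TPM against 6.89 to 19.2 TPM and 4833439L19Rik at 59.1 TPM against 51.5 to 79.5 TPM. Higd2a and Cltb were also high in the tumor of R26P115, at 439.2 and 219.8 TPM, where Nop16 was at 21.6 TPM.

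Dkc1 lies on the X chromosome, and the sex of the mouse, which the labels give for 12 of 16, was looked at after the values were seen. Among the extra-CNS tumors Dkc1 was at 52.5 to 81.6 TPM in the 3 male mice and at 19.2 to 50.05 TPM in the 7 female mice, with no overlap. The 3 male tumors, those of 29941C, 29225D and 43990A, were also highest in Wdr43, which is on chromosome 17. They were at 85.4, 86.9 and 108.3 TPM of Wdr43, against at most 78.9 TPM in the other extra-CNS tumors. How many of all genes split in this way was not counted. In intra-CNS tumors the sex is given for 2 mice, both female, at 43.2 and 92.7 TPM. Among female mice alone the mean log2(TPM + 1) of Dkc1 was higher by 0.78 in intra-CNS tumors, which did not pass a two-sided exact permutation test (p = 0.194, where the 36 splits of 2 against 7 allow no less than 0.0278), and by 0.63 without R26P115 (exact permutation p = 0.143). The difference between sexes was not tested.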
